A study of Mus musculus with 11 samples.

Results

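The 5 genes described here, Mtap, Mri1, Apip, Enoph1 and Adi1, encode the enzymes that turn methylthioadenosine back into the precursor of methionine. They were chosen by name as the members of this pathway, and they are 5 of 55416 gene identifiers in the deposited table and 5 of the 12909 genes tested. All 5 passed the filter of a mean normalized count of at least 10.

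Methylthioadenosine is left over when cells make the polyamines spermidine and spermine from decarboxylated S-adenosylmethionine. MTAP splits it into adenine and methylthioribose phosphate, MRI1 isomerizes the sugar phosphate, APIP removes water from it, ENOPH1 acts as both enolase and phosphatase to give acireductone, and ADI1 oxidizes acireductone to the keto acid of methionine. A transaminase then adds the amino group, so that the sulfur and methyl group return to methionine. MTAP lies beside the cell cycle inhibitor CDKN2A and is often lost with it in human tumours.

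Polyadenylated RNA was sequenced from EC4, a mouse liver cancer cell line, in 11 libraries. The cells carried the genotype label MYC on (MYC high in the sample titles) or MYC off (MYC low), and the labels do not name the agent or promoter that switches MYC. They had been cultured in DMEM at 200 µM methionine and were then given 10 or 200 µM methionine for 24 h. MYC high cells at 200 µM were represented by 2 libraries (replicates 2 and 3, with replicate 1 not analysed here), and MYC low cells at 200 µM, MYC high cells at 10 µM and MYC low cells at 10 µM by 3 libraries each. All 4 groups are of 1 line, and the labels do not say whether libraries came from separate cultures, so the p-values reflect how far these libraries differ within a group, and that may be technical variation.

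Libraries held 10858936 to 13085689 reads on genes. The mouse Myc gene stood at 2089 ± 106 (SD, n = 2) normalized counts in MYC high and 1136 ± 31.3 (n = 3) in MYC low cells at 200 µM, but at 336 ± 39.2 and 336 ± 13.5 (n = 3 each) at 10 µM. The labels do not say whether the MYC that is switched is this mouse gene or a transgene that mouse gene models would not count, so the equal values at 10 µM do not show that MYC was equal. The directions at 10 µM rest on the labels. Mitochondrially encoded genes took 0.793% to 0.914% of reads in MYC high and 1.52% to 1.74% in MYC low libraries. None of 7 matched hepatocyte markers reached a mean of 10, and Alb, Fgb and Cps1 had 0 reads in every library, whereas the keratins Krt8 and Krt18 did. Of 7 fetal liver and biliary markers Afp, Krt19 and Sox9 did, and Igf2 and Epcam had 0 reads throughout. The summed level of these 7 was 1752 to 1814 normalized counts in MYC high libraries and 3335 to 3654 in MYC low libraries at 200 µM, and 11929 to 13061 and 11164 to 11406 at 10 µM. None of the 8 fibroblast and 4 endothelial markers did. Of 5 macrophage markers Csf1r, whose exons overlap Hmgxb3 on the opposite strand, and Cd68 passed. Ptprc and Clec4f were at 0, and the summed level of the 5 was 263 to 286 normalized counts in MYC high libraries and 482 to 533 in MYC low libraries at 200 µM, against 873 to 906 and 929 to 973 at 10 µM. These shares and levels moved with the groups compared below, and their part in the results was not tested.

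In MYC high cells at 200 µM methionine, 3 of the 5 enzymes, Mtap, Mri1 and Enoph1, were higher than in MYC low cells, Adi1 was lower and Apip did not pass the test. Over all genes tested, 36.8% were called higher and 37.6% lower in this comparison, by limma at a Benjamini-Hochberg adjusted p under 0.05. Mri1 and Enoph1 were higher by at least 2-fold, as were 6.79% of all genes tested. Mri1 lay just past that mark (log2 1.04) and was under it without replicate 2 of the MYC high cells (0.96) or replicate 2 of the MYC low cells (0.98). The median log2 difference of the 5 enzymes was 0.57, and that of all genes tested was -0.003. In RNA from whole cultures, fewer cells of a type and less RNA per cell cannot be told apart. At 10 µM the directions were the same: Mtap, Mri1 and Enoph1 were higher, Adi1 was lower and Apip did not pass, where 35.7% of all genes were called higher and 35.8% lower.

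**Figure D1:**
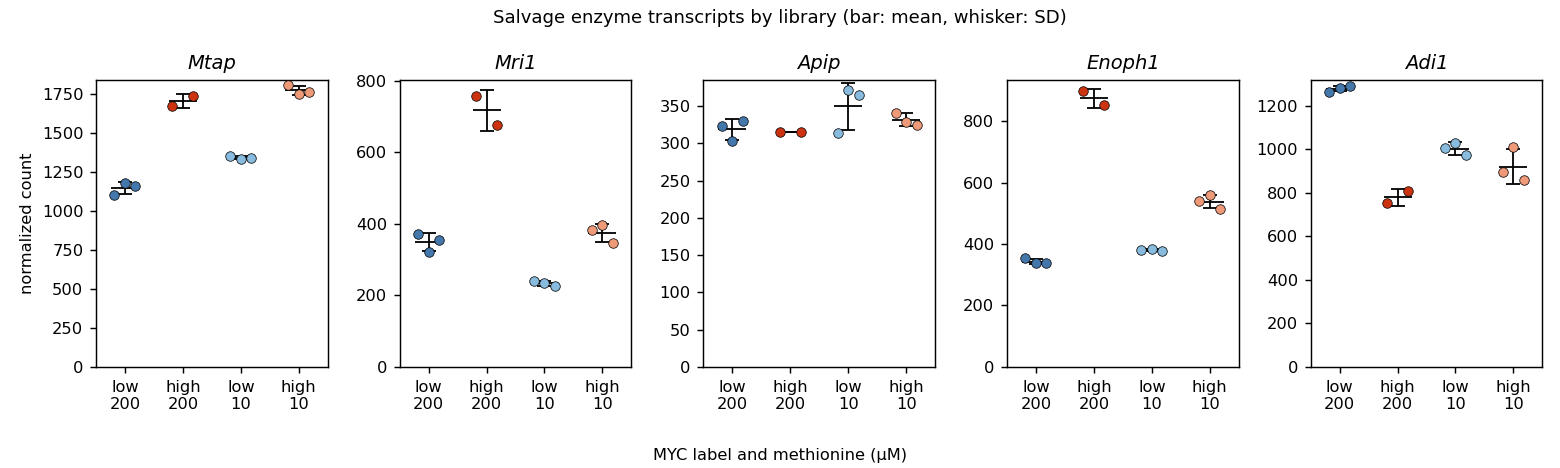
Normalized counts (vertical axes, each from 0) of the 5 salvage enzymes in each of the 11 libraries, grouped by MYC label and methionine in µM; points are libraries, long bars means and whiskers the SD. Mtap, Mri1 and Enoph1 stand higher in the MYC high libraries of each medium, Adi1 is lower at 200 µM, and Apip lies between 303 and 371 throughout.

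Low methionine divided the pathway differently. In MYC high cells, Mri1 and Enoph1 fell and Adi1 rose at 10 µM, while Mtap and Apip did not pass the test (37.9% of all genes were called higher and 37.9% lower). In MYC low cells, Mtap and Enoph1 rose, Mri1 and Adi1 fell and Apip did not pass (29.4% higher, 29.9% lower). The difference between the 2 methionine responses, tested as an interaction and given with the response of the MYC low cells subtracted, was positive for Adi1 and negative for Mtap, Mri1 and Enoph1, and 31% of all genes were called positive and 29.4% negative. With so many genes called in each comparison, the number of enzymes called is not set apart from the rest, and the sizes and directions of the single enzymes are given below in the order of the pathway.

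**Figure D2:**
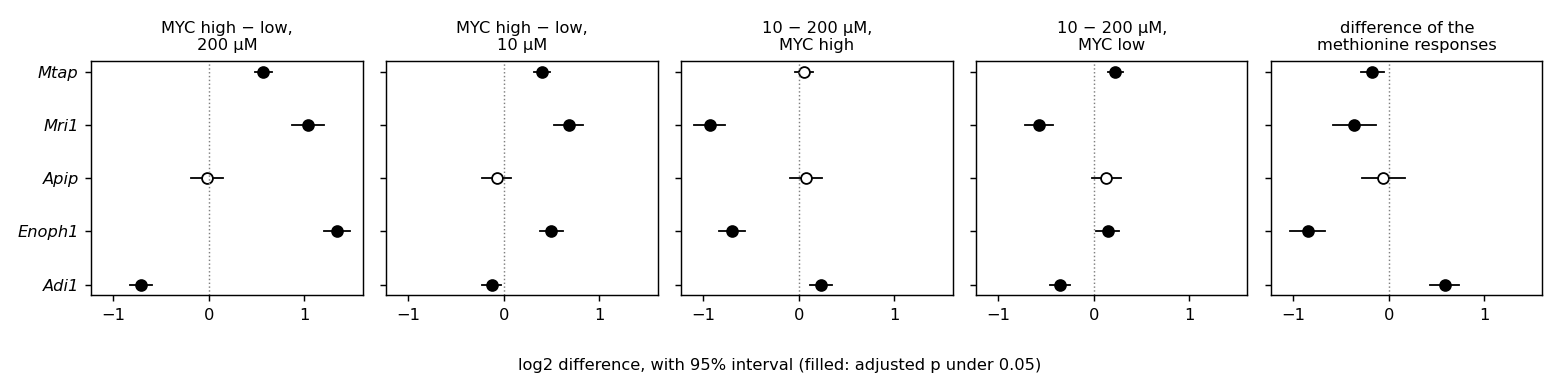
Log2 differences (horizontal axes) of the 5 enzymes in the 4 comparisons and in the difference of the methionine responses (MYC high minus MYC low), with the 95% interval as a line; filled points passed an adjusted p under 0.05 by limma. Mri1 lies left of 0 in both methionine comparisons, whereas Enoph1 and Adi1 lie on opposite sides of 0 in MYC high and MYC low cells.

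The promoter windows of 3 enzymes are shown because these enzymes differed in their values: Enoph1 had the largest MYC difference of the 5 at 200 µM, Mri1 the largest at 10 µM, and Apip none that passed. The 150 bases run 5′ to 3′ on the strand of the gene, around the annotated first transcribed base, which is position 0 of the positions given. They are RefSeq sequence of build GRCm38.p6, and capitals mark CACGTG and CACGCG on either strand. CACGTG is the core hexamer to which MYC and its partner MAX bind, and CACGCG is a variant of it.
Enoph1, chr5:100039869-100040018, plus strand: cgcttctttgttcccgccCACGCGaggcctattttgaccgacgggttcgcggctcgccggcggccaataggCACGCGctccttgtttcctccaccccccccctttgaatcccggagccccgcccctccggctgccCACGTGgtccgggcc
Mri1, chr8:84257300-84257449, minus strand: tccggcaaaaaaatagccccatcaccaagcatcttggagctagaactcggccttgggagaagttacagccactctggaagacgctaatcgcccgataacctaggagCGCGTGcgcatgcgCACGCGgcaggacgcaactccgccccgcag
Apip, chr2:103073550-103073699, plus strand: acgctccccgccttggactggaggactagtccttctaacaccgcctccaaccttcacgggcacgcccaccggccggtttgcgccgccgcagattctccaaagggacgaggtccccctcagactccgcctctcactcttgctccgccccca

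The Enoph1 window holds CACGTG at position 10 and CACGCG at positions -107 and -54. Mri1 has CACGCG at positions -19 and -5, where the capitals CGCGTG are the match on the other strand. Over the full windows of 300 bases (250 before and 50 from the start site), Apip and Mtap hold neither hexamer, and no window was matched for Adi1. Of these, Mtap was called higher in MYC high cells in both media (0.57 and 0.40), and Apip was called in neither. Among 32851 promoter windows of the same length, 7.15% hold CACGTG and 9.27% hold CACGCG. The element TGATGNAA, the form bound by ATF4 in the amino acid response, was searched on both strands too. It is in none of the 4 windows and in 3.97% of all. The GC content of the windows was 73% for Enoph1, 66.3% for Apip, 57% for Mtap and 56.3% for Mri1, against 53.8% over all windows. These matches describe letters only.

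Mtap, the phosphorylase that opens the pathway, was read at 1670 and 1735 normalized counts in MYC high cells at 200 µM and at 1103, 1176 and 1158 in MYC low cells. At 10 µM it was read at 1803, 1744 and 1761 in MYC high and at 1349, 1329 and 1339 in MYC low cells. Every MYC high library lay above every MYC low library, whatever the medium. The MYC difference was 0.57 on the log2 scale at 200 µM (SE 0.044, 1.49-fold, adjusted p = 2.64e-14) and 0.40 at 10 µM (SE 0.039, 1.32-fold, adjusted p = 1.85e-11). In MYC low cells Mtap rose by 0.23 at 10 µM (1.17-fold, adjusted p = 6.42e-06), with no overlap between the groups. In MYC high cells the groups did not overlap either, and the difference was 0.06 (95% interval -0.03 to 0.15, adjusted p = 0.254). The interaction was -0.17 (adjusted p = 0.0135), and without replicate 3 of the MYC high cells at 200 µM it was -0.14 with an adjusted p of 0.0751.

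Mri1, the isomerase of the second step, was read at 759 and 677 normalized counts in MYC high cells at 200 µM and at 371, 320 and 355 in MYC low cells. At 10 µM the values were 383, 396 and 346 in MYC high and 240, 234 and 227 in MYC low cells. MYC high cells at 10 µM thus reached the range of MYC low cells at 200 µM. Mri1 was the only enzyme of the 5 that fell with low methionine in both MYC states. The fall was 0.93 on the log2 scale in MYC high cells (SE 0.082, 1.91-fold, adjusted p = 7.7e-13) and 0.58 in MYC low cells (SE 0.073, 1.49-fold, adjusted p = 1.53e-08). Its MYC difference was 1.04 at 200 µM (2.05-fold, adjusted p = 4.75e-14) and 0.68 at 10 µM (1.60-fold, adjusted p = 1.87e-10). The interaction was -0.36 (SE 0.11, adjusted p = 0.00513), and without replicate 2 of the MYC high cells at 200 µM, the higher of the 2, it was -0.28 with an adjusted p of 0.063.

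Apip, the dehydratase of the third step, was read at 315 and 315 normalized counts in MYC high and at 324, 303 and 330 in MYC low cells at 200 µM. At 10 µM it was read at 341, 329 and 325 in MYC high and at 314, 371 and 365 in MYC low cells. The 4 groups lay within a narrow band, and the MYC groups overlapped in each medium. The methionine groups overlapped in MYC low cells but not in MYC high cells. Counting error alone is 5.10% to 5.91% of the value at the mean reads of the groups (276 to 414 reads per library). The closeness of the first 2 libraries is therefore not a measure of their spread. The MYC differences were -0.02 at 200 µM (95% interval -0.18 to 0.15, adjusted p = 0.872) and -0.07 at 10 µM (-0.22 to 0.08, adjusted p = 0.389). The methionine differences were 0.07 in MYC high cells (95% interval -0.10 to 0.24, adjusted p = 0.427) and 0.13 in MYC low cells (-0.02 to 0.28, adjusted p = 0.13). Without replicate 1 of the MYC low cells at 10 µM, the lowest of its group, the last value was 0.21 with an adjusted p of 0.0269. The interaction was -0.06 (95% interval -0.28 to 0.17, adjusted p = 0.679).

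Enoph1, the enolase-phosphatase of the fourth step, had the largest MYC difference of the 5 at 200 µM, while Mri1 had a larger one at 10 µM. It was read at 897 and 853 normalized counts in MYC high and at 354, 337 and 339 in MYC low cells at 200 µM. At 10 µM it was read at 541, 559 and 514 in MYC high and at 380, 384 and 377 in MYC low cells. The MYC gap of 2.55-fold at 200 µM (log2 1.35, SE 0.067, adjusted p = 5.32e-20) was larger than 97.3% of all log2 differences of the comparison. At 10 µM it was 1.41-fold (log2 0.50, SE 0.060, adjusted p = 2.2e-09). The gap narrowed from the side of the MYC high cells, in which Enoph1 fell by 0.70 (SE 0.067, 1.63-fold, adjusted p = 6.78e-12). In MYC low cells it rose by 0.15 (SE 0.060, 1.11-fold, adjusted p = 0.0308). That small rise did not pass with DESeq2 (adjusted p = 0.0947), nor when any of 5 of the 6 MYC low libraries was left out (adjusted p = 0.0527 to 0.0838), the exception being replicate 1 at 200 µM. The interaction was -0.85 (SE 0.090, adjusted p = 2.37e-10).

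Adi1, the dioxygenase of the last of the 5 steps, had the opposite sign to Enoph1 in every comparison. It was read at 752 and 807 normalized counts in MYC high cells at 200 µM and at 1264, 1282 and 1289 in MYC low cells. At 10 µM it was read at 894, 1009 and 857 in MYC high and at 1004, 1030 and 972 in MYC low cells. The groups were far apart at 200 µM, where Adi1 was 1.64-fold lower in MYC high cells (log2 -0.71, SE 0.056, adjusted p = 4.58e-14). At 10 µM they overlapped, with a difference of -0.13 (SE 0.050, adjusted p = 0.0244). That call was lost with DESeq2 (adjusted p = 0.066), without a filter on low values (0.0655) and without replicate 1 (0.0902) or 3 (0.193) of the MYC high or replicate 1 (0.0539) or 2 (0.1) of the MYC low cells at 10 µM. The 2 MYC states lay closer at 10 µM, with a rise of 0.24 in MYC high cells (1.18-fold, adjusted p = 0.000298) and a fall of 0.35 in MYC low cells (1.28-fold, adjusted p = 1.66e-07). The interaction was 0.59 (SE 0.075, adjusted p = 2.04e-08).

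Because Enoph1 and Adi1 had opposite signs in every comparison, a ratio of the 2 widens those differences and is no separate result. The ratio of Enoph1 to Adi1 normalized counts in a library kept the 4 groups apart. At 200 µM it was 1.06 to 1.19 in MYC high libraries and 0.263 to 0.280 in MYC low libraries. At 10 µM it was 0.554 to 0.605 in the former and 0.373 to 0.388 in the latter. Both MYC states at 10 µM lay between the 2 states at 200 µM. Mri1 divided by Adi1 did not order the groups in the same way, with means of 0.924, 0.273, 0.408 and 0.233 in the same sequence of groups.

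Levels of different enzymes were compared per kilobase of annotated exon (1000 bases for Apip, 1886 for Adi1, 2509 for Enoph1, 3226 for Mtap and 3273 for Mri1), on the gene models of an earlier annotation than that of the files. These lengths join the exons of all annotated transcripts of a gene, and the transcripts expressed may be shorter. The order of the enzymes therefore depends on the lengths used. In MYC high cells Mtap was the most abundant transcript of the pathway, at 528 ± 14.1 (SD, n = 2) normalized counts per kb at 200 µM and 548 ± 9.46 (n = 3) at 10 µM. In MYC low cells Adi1 was, at 678 ± 6.99 and 531 ± 15.6 (n = 3 each). Mri1 was the least abundant in all 4 groups, with a highest mean of 219 ± 17.7 per kb (MYC high, 200 µM) and a lowest of 71.3 ± 1.98 (MYC low, 10 µM). Enoph1 stood above Apip in MYC high cells at 200 µM alone, at 349 ± 12.4 against 315 ± 0.180 per kb (n = 2), and below it in the other 3 groups. That SD of Apip is far below its counting error of 5.91% and does not measure its spread. Within each group, no 2 enzymes next to each other in this order overlapped between libraries.

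As a share of the summed level per kb of the 5 enzymes, Adi1 took 42.5% ± 0.488 (SD, n = 3) in MYC low cells at 200 µM and 22.7% ± 1.08 (n = 2) in MYC high cells. Enoph1 took 8.57% ± 0.267 in the former and 19.1% ± 0.728 in the latter. At 10 µM the shares of Adi1 were 35.0% ± 0.891 in MYC low and 28.7% ± 1.63 in MYC high cells, and those of Enoph1 were 9.98% ± 0.161 and 12.6% ± 0.106 (n = 3 each). At 200 µM the pathway's RNA was thus weighted towards its last enzyme in MYC low cells and more evenly spread in MYC high cells. At 10 µM the contrast was smaller. Mtap then took the largest share in MYC high cells, at 32.3% ± 1.27 against 27.3% ± 0.786 in MYC low cells. The sum itself moved less, with a lowest mean of 1519 ± 32.9 normalized counts per kb (MYC low, 10 µM) and a highest of 1824 ± 4.66 (MYC high, 200 µM). These shares depend on the exon lengths used, and on one another, since they add up to a fixed total.

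**Figure D3:**
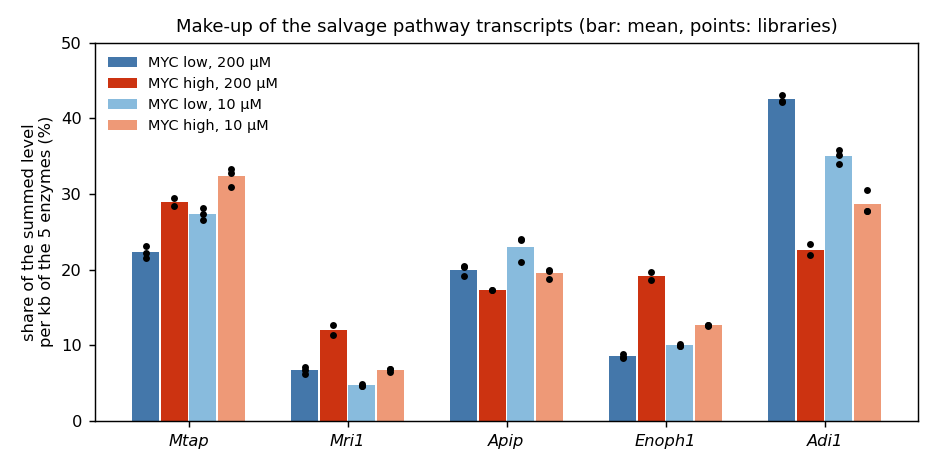
Share of the summed normalized counts per kb of the 5 enzymes taken by each enzyme (vertical axis, percent), by MYC label and methionine; bars are means and points libraries. Adi1 falls from 42.5% to 22.7% and Enoph1 climbs from 8.57% to 19.1% between MYC low and MYC high cells at 200 µM.

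The start sites of Enoph1 and Apip each lie head to head with that of another gene, so the nearest protein-coding neighbour of each enzyme was read as well. Enoph1 and Hnrnpdl, which encodes an RNA-binding protein of the hnRNP family, start 321 bases apart on opposite strands in the GENCODE M21 models. Hnrnpdl was read at 2043 and 2054 normalized counts in MYC high and at 852, 825 and 835 in MYC low cells at 200 µM, and at 1112, 1138 and 1083 in MYC high and 950, 952 and 912 in MYC low cells at 10 µM. The groups fell in the same order as for Enoph1. Its MYC difference was 1.29 on the log2 scale at 200 µM (SE 0.048, adjusted p = 6.52e-24) and 0.24 at 10 µM (adjusted p = 3.6e-06). Its methionine difference was -0.88 in MYC high cells (adjusted p = 6.13e-19) and 0.16 in MYC low cells (adjusted p = 0.00118). The ratio of Enoph1 to Hnrnpdl lay within 0.400 to 0.491 over all 11 libraries. It was higher in MYC high cells at 10 µM (0.475 to 0.491) than in every library of the other 3 groups (0.400 to 0.439). No exon of Enoph1 overlaps another annotated gene in these models.

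Apip and Pdhx, which encodes a subunit of the pyruvate dehydrogenase complex, start 162 bases apart on opposite strands. Pdhx was higher in MYC high cells in both media, a comparison that Apip did not pass; the difference between the 2 genes was not tested. It was read at 809 and 861 normalized counts in MYC high and at 709, 670 and 665 in MYC low cells at 200 µM, and at 981, 988 and 1014 in MYC high and 669, 625 and 602 in MYC low cells at 10 µM. The MYC difference was 0.29 at 200 µM (adjusted p = 2.04e-05) and 0.65 at 10 µM (adjusted p = 3.83e-14). The ratio of Apip to Pdhx ran from 0.321 to 0.606 over the libraries.

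**Figure D4:**
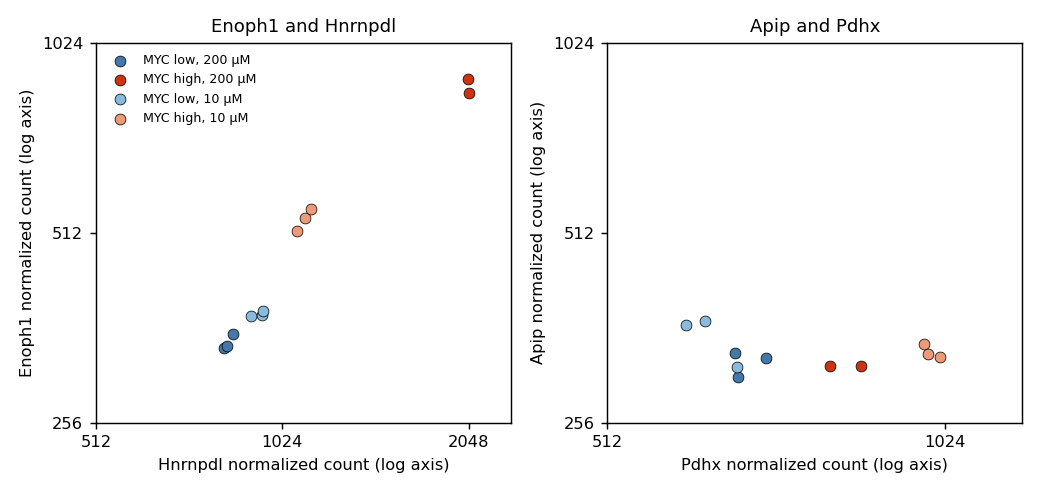
Normalized counts per library of Enoph1 against Hnrnpdl (left) and of Apip against Pdhx (right), on log axes; points are the 11 libraries, coloured by MYC label and methionine. Enoph1 climbs with Hnrnpdl, and Apip lies between 303 and 371 while Pdhx runs from 602 to 1014.

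The other 3 enzymes have no such close neighbour. The start of Cdkn2a, the tumour suppressor gene beside Mtap, is 157531 bases away. Its MYC differences were 0.54 at 200 µM and 0.86 at 10 µM and its methionine differences 0.92 (MYC high) and 0.60 (MYC low), all called higher. Cdkn2b, the related inhibitor gene at the same locus, had -0.27 and -0.48 for MYC, both called lower, and 0.11 (not passed) and 0.32 (called higher) for methionine. Mri1 lies 7607 bases from D8Ertd738e on the same strand, and the MYC difference of that gene was 0.44 at 200 µM and -0.41 at 10 µM. Adi1 lies 25629 bases from Rnaseh1, which encodes a nuclease for RNA in RNA-DNA hybrids and was higher in MYC high cells at 200 µM (0.66), where Adi1 was lower.

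The genes whose log2 values followed each enzyme most closely were sought among 9722 genes with a mean of at least 100, by Pearson's r over the 11 libraries, which share 4 groups and so give few independent points. For Mtap these were Hsp90aa1 (r = 0.996), a cytosolic chaperone, Cct3 (0.993), a subunit of the TRiC chaperonin, and Eftud2 (0.992), a GTPase of the spliceosome. For Mri1 they were Nip7 (0.997), a ribosome biogenesis factor, the histone variant gene H2afz (0.993) and Isg20l2 (0.991), a nuclease of ribosomal RNA processing. Enoph1 had Pitpnb (0.995), a phosphatidylinositol transfer protein, Ntmt1 (0.994), an N-terminal methyltransferase, and Tubb6 (0.992), a beta-tubulin. Adi1 had Ypel3 (0.985), Htatip2 (0.975) and Scpep1 (0.972), a serine carboxypeptidase. The closest genes to Apip reached 0.822 (Gm10382), 0.770 (Ahsa2) and 0.759 (Dpp9, a dipeptidyl peptidase). Hsp90aa1 and H2afz have close copies in the genome, so their counts are uncertain.

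The other genes around the pathway were a list of 26, of which 19 were tested. In MYC high cells 15 were higher and 4 lower at 200 µM, and 14 were higher, 2 lower and 3 not passed at 10 µM. The 4 lower include Kyat1, whose call did not hold under several settings given below. Over all genes tested, 36.8% were called higher and 37.6% lower at 200 µM, and 35.7% and 35.8% at 10 µM. At 10 µM methionine 7 rose, 11 fell and 1 did not pass in MYC high cells, where 37.9% of all genes rose and 37.9% fell. In MYC low cells 5 rose, 7 fell and 7 did not pass, where 29.4% of all genes rose and 29.9% fell. The medians of the list were 0.68, 0.52, -0.24 and 0.08 in that sequence, and those of all genes tested were between -0.004 and 0.002.

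Upstream of MTAP, all 5 genes of polyamine synthesis, where methylthioadenosine arises, were higher in MYC high cells at 200 µM. Of all genes tested, 36.8% were called higher in that comparison. Srm, spermidine synthase, which releases methylthioadenosine, stood at 2105 ± 19.6 (SD, n = 2) normalized counts against 567 ± 51.2 (n = 3), a log2 difference of 1.89 (SE 0.064, adjusted p = 3.56e-25). Odc1, ornithine decarboxylase, differed by 0.83, Sms, spermine synthase, by 0.74, and Amd1 and Amd2, S-adenosylmethionine decarboxylase, by 1.12 and 1.29. Amd1 and Amd2 are near-identical copies, so how reads were divided between them is uncertain. At 10 µM 4 of the 5 were higher, with Odc1 at 1.05, Srm at 1.45, Sms at 1.33 and Amd1 at 0.21, and Amd2 at 0.17 did not pass. There, 35.7% of all genes tested were called higher. In low methionine Amd1 fell by 0.71 in MYC high cells and rose by 0.20 in MYC low cells, the directions of Enoph1. Sms rose by 0.29 in MYC high cells and fell by 0.30 in MYC low cells, the directions of Adi1. Odc1 had the directions of neither, with falls in both states: -0.24 where MYC was labelled high, -0.46 where it was labelled low. Srm (-0.34) and Amd2 (-0.91) also fell in MYC high cells. Their values in MYC low cells, 0.10 and 0.21, did not pass. That of Srm passed by limma without MYC low replicate 3 at 200 µM (0.17, adjusted p = 0.0106) or replicate 3 at 10 µM (0.16, 0.0268).

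Downstream of ADI1, 4 of 5 genes linked to the last transamination were tested, Tat being too low. Kyat3, a kynurenine and glutamine aminotransferase, stood at 6.57 ± 1.21 (n = 2) normalized counts in MYC high cells at 200 µM and at 66.3 ± 7.82 (n = 3) at 10 µM, a log2 difference of 3.15 (SE 0.255, adjusted p = 8.56e-14). Kyat1, its relative, stood at 26.7 ± 10.3 and 96.0 ± 12.5 (log2 1.85, adjusted p = 1.7e-09). In MYC low cells Kyat3 rose by 0.81 (adjusted p = 0.00241), and the difference for Kyat1 was 0.20 (adjusted p = 0.39). Kyat1 was lower in MYC high than MYC low cells at 200 µM (-0.56, adjusted p = 0.0225 by limma), and without replicate 2 of the MYC high cells the value was -0.17. The call was lost with edgeR (adjusted p = 0.0663), with DESeq2 (0.122) and by limma without a filter on low values (0.0689). It was also lost by limma with only the 2 groups compared (0.0541) and without replicate 1 of the MYC low cells (0.0581). Kyat3 had only 5 and 7 reads in the MYC high libraries at 200 µM, a counting error of 40.8%, so the size of its rise is uncertain. An exon of Kyat3 overlaps that of an annotated antisense gene with a mean of 5.27 normalized counts over all libraries. The strand setting of the counting is not given in the sources used here. Got1, an aspartate aminotransferase, fell by 0.30 in MYC high and by 0.95 in MYC low cells. Nit2, the omega-amidase that acts with glutamine transaminases, rose by 0.44 in MYC high cells and stood at 0.10 (not passed) in MYC low cells, and its exons overlap those of Tomm70a on the opposite strand.

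**Figure D5:**
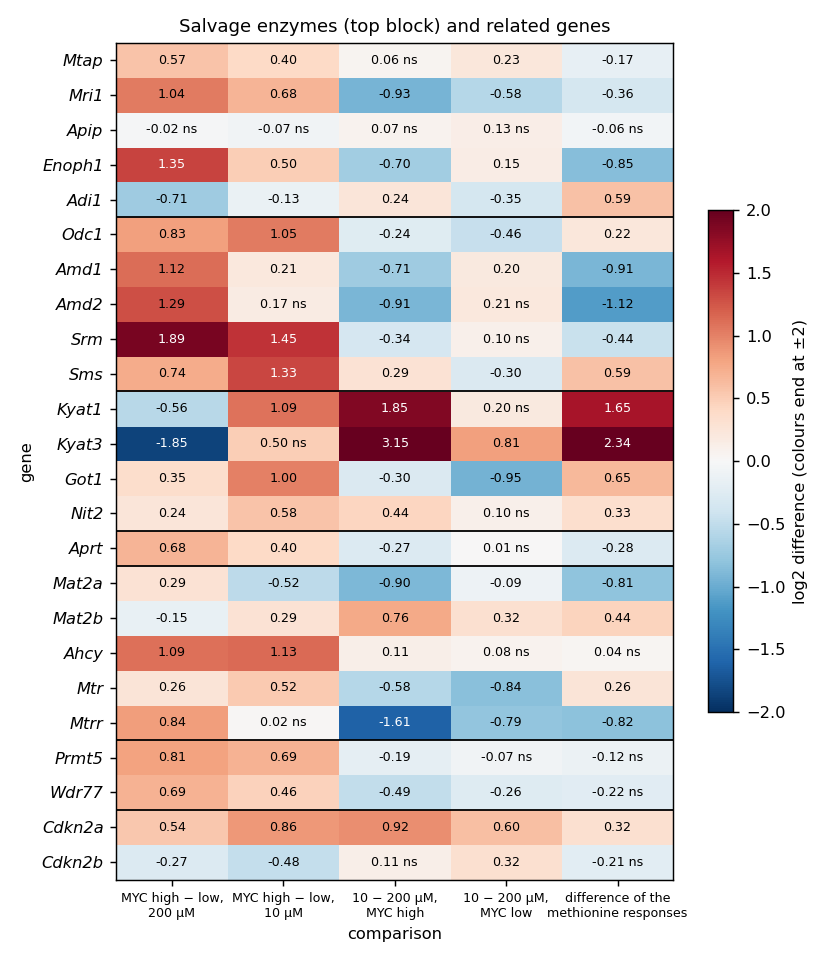
Log2 differences of the 5 salvage enzymes (top block) and the 19 tested related genes (rows) in the 4 comparisons and the difference of the methionine responses (columns); colour runs from blue (lower) to red (higher) and ns marks an adjusted p of 0.05 or above by limma. Kyat3 and Kyat1 hold the strongest red in MYC high cells at 10 µM, and Mtrr the strongest blue.

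Aprt, which returns the adenine released by MTAP to the nucleotide pool, was higher in MYC high cells by 0.68 at 200 µM and 0.40 at 10 µM, and in low methionine it fell by 0.27 in MYC high cells and stood at 0.01 (not passed) in MYC low cells. Prmt5 and Wdr77, the arginine methyltransferase that methylthioadenosine inhibits and its partner, were higher in MYC high cells in both media, by 0.81 and 0.69 for Prmt5 and by 0.69 and 0.46 for Wdr77. Wdr77 has exons that overlap Atp5f1 on the opposite strand. Low methionine went with falls of 0.19 for Prmt5 and 0.49 for Wdr77 in MYC high cells, of which that of Prmt5 was lost without replicate 2 at 200 µM (adjusted p = 0.0778). In MYC low cells Wdr77 was also lower (-0.26, adjusted p = 0.00135 by limma), and Prmt5 at -0.07 did not pass. The interaction passed for neither Prmt5 (adjusted p = 0.23) nor Wdr77 (0.0631). That of Wdr77 passed when some single libraries were left out (0.0248 to 0.0338).

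Another source of methionine in the cell, besides the medium, is the remethylation of homocysteine. Of 11 listed genes of the methionine cycle and transsulfuration 5 were tested, and Mat1a, Bhmt, Bhmt2, Gnmt, Cbs and Cth were too low. Mtrr, which reactivates methionine synthase, stood at 798 ± 6.02 (n = 2) normalized counts in MYC high cells at 200 µM and 260 ± 9.81 (n = 3) at 10 µM, a fall of 1.61 on the log2 scale (adjusted p = 8e-21), and fell by 0.79 in MYC low cells. Mtr, the synthase itself, fell by 0.58 and 0.84. Both genes fell in both MYC states, as Mri1 did, but so did Odc1, Got1, Wdr77 and Mat2a of the listed genes. Of all genes tested, 37.9% were called lower at 10 µM where MYC was labelled high, and 29.9% where it was labelled low. The share called lower in both is not given here, so a fall in both states does not set these genes apart. Mat2a, the S-adenosylmethionine synthetase of non-hepatocyte cells, has an exon that overlaps Particl on the opposite strand. It fell by 0.90 in MYC high cells (adjusted p = 4.11e-21) and by 0.09 in MYC low cells (adjusted p = 0.0277), and the latter call was lost with DESeq2 (0.0582), without a filter (0.0602) and without replicate 1 or 3 at 200 µM or replicate 2 at 10 µM (0.0569 to 0.111). Mat2b, its regulatory subunit, rose by 0.76 and 0.32. Ahcy, which hydrolyses S-adenosylhomocysteine, was higher in MYC high cells by 1.09 at 200 µM and 1.13 at 10 µM, while its methionine differences were 0.11 in the MYC high cells, a call lost without replicate 3 at 200 µM (adjusted p = 0.134) or replicate 1 at 10 µM (0.0744), and 0.08 in the MYC low cells (not passed).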

How the data were processed

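The authors deposited normalized counts, 1 signal value per gene and library, made with DESeq2 among the tools (FastQC, fastp, STAR, SAMtools, HTSeq) and the build GRCm39 that the submitters' processing notes name without versions. NEBNext Ultra II libraries were made from Qiagen-extracted RNA, per the labels. The strand setting and the annotation release were not given in the sources used here. All values (100%) were whole multiples of 1 step per library within 0.001, which gave the reads and depths. Identifiers were matched to symbols, exon lengths and neighbours in GENCODE M21 (build GRCm38), which matched 52083 of 55416. Because builds differ, the only coordinates printed are those of the RefSeq promoter table, which matched 4 of the 5 enzymes.

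Groups were compared with limma 3.58.1 (R 4.3.3) on log2(value + 1), a scale that understates changes of low genes, over genes with a mean of at least 10. All 11 libraries shared 1 estimate of spread, with a trend on mean expression, and p-values were adjusted by Benjamini-Hochberg over the 12909 genes at 0.05. SE is limma's, SD is between libraries, and folds come from the log2 differences. The fit was also run on simulated data with far fewer changed genes than were called here, and no result rests on that run. Alternatives were other pseudocounts, filters and scaling, edgeR 4.0.16 and DESeq2 1.42.0 on the recovered reads, a replicate block, only the groups compared, and each library left out. Same-numbered libraries did not deviate together (15 pairs, 0 with a correlation above 0.1).

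The named genes are the 5 enzymes, a written list of 26 related genes (1 further listed gene is not reported here), the nearest protein-coding neighbour of each enzyme, the 3 genes most like each enzyme and Myc. Enzymes, lists and motifs were chosen with earlier results of these data known. At the mean reads of each group, depth gives a counting error of 2.39% to 6.25% of the value for the 5 enzymes, which covers counting error only.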

Additional observations from a re-analysis of the deposited data

Results flagged for a closer look

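The methionine response differed between MYC high and MYC low cells, by the interaction in limma at an adjusted p under 0.05, for 4 of the 5 salvage enzymes, 15 of the related genes, the 4 neighbours outside that list and Myc. Over all genes tested, 31% were called positive and 29.4% negative in the same test, so a call by itself does not set these genes apart. The values are the log2 response (10 against 200 µM) of MYC high cells less the response of MYC low cells. Among the enzymes they were -0.17 for Mtap, -0.36 for Mri1, -0.85 for Enoph1 and 0.59 for Adi1. The calls of Mtap (-0.14) and Mri1 (-0.28) did not hold with every library left out, as given above. In polyamine synthesis they were 0.22 for Odc1, -0.91 for Amd1, -1.12 for Amd2, -0.44 for Srm and 0.59 for Sms. In the transamination step all 4 tested genes had positive values, with 1.65 for Kyat1, 2.34 for Kyat3, 0.65 for Got1 and 0.33 for Nit2. Aprt had -0.28. In the methionine cycle the values were -0.81 for Mat2a, 0.44 for Mat2b, 0.26 for Mtr and -0.82 for Mtrr. Cdkn2a, at the Mtap locus, had 0.32. Among the other neighbours the values were -1.04 for Hnrnpdl, 0.36 for Pdhx, -0.85 for D8Ertd738e and -0.53 for Rnaseh1, which lost its call without replicate 2 of the MYC high cells at 200 µM (-0.45, adjusted p = 0.0564). Myc had -0.88. The group of MYC high cells at 200 µM, with 2 libraries, enters each of these values.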

How the results depend on the processing

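Of 495 values of the 5 enzymes under the alternatives, 479 kept their direction and side of the threshold, 14 were no longer passed and 1 was newly passed. The other, the MYC difference of Apip at 200 µM, ran from -0.0521 to 0.0095 when single libraries were left out and turned sign without replicate 3 of the MYC low cells. Of the other named genes, 4 differences that passed under no setting turned sign when single libraries were left out. These were the MYC difference at 10 µM of Mtrr (-0.0218 to 0.0539) and Myc (-0.0696 to 0.0936), and the methionine difference in MYC low cells of Aprt (-0.0141 to 0.0303) and Rnaseh1 (-0.132 to 0.0517). The difference of Myc was also 0.0015 with TMM scaling, 0.0081 with edgeR and 0.0056 with DESeq2. The number of enzymes lower in MYC high cells at 10 µM was 0 in place of 1, without Adi1, with no filter on low values and with DESeq2, and 0 to 1 when single libraries were left out. The number that rose in MYC low cells at 10 µM was 1 in place of 2 with DESeq2, without Enoph1, and 1 to 2 when single libraries were left out. A replicate block left the number of enzymes called in each comparison as it was, with 3 higher and 1 lower in MYC high cells at 200 µM, where Enoph1 had 1.36. TMM scaling shifted the median of all genes by at most 0.0178. Small differences such as those of Apip are limited by its 276 to 414 reads per library.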
